A study of Mus musculus with 7 samples.

Results

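The islet hormone genes comprised Ins1, Ins2, Gcg, Sst, Ppy, Pyy, Ghrl, Iapp, Npy and Ttr, which were taken from the deposited read counts by gene symbol. All 10 were found among the 27138 features of the table, and all 10 had enough counts to be among the 16910 features tested. RNA was polyadenylated RNA from the whole pancreas of mouse embryos at E15.5 (embryonic day), in 7 libraries that the labels call biological replicates. The WT embryos (4 libraries) carried loxP-flanked (fl/fl) alleles of the long non-coding RNA gene mLINC00673 (2610035D17Rik, the mouse ortholog of LINC00673) and no Cre. The cKO embryos (3 libraries) carried the same fl/fl alleles together with Pdx1Cre. This recombinase is driven by the Pdx1 promoter, which is active in the pancreatic epithelium. The comparison asked what changes in the developing pancreas once this RNA is removed from the epithelium. The floxed alleles were common to both groups. Because Cre was carried by cKO embryos alone, deletion and Cre cannot be told apart.

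Endocrine cells of the pancreas arise from epithelial progenitors that switch on Neurog3, and each mature type makes chiefly one hormone. Beta cells make insulin and co-secrete islet amyloid polypeptide, alpha cells make glucagon, delta cells somatostatin, PP cells pancreatic polypeptide and epsilon cells ghrelin. Mice have a pair of insulin genes, Ins2 and its retroposed copy Ins1. Around E15.5 the mouse pancreas is in the wave of differentiation in which beta cells begin to form in number, while exocrine acini expand beside them. Peptide YY, neuropeptide Y and pancreatic polypeptide form one peptide family, and their genes are used in fetal endocrine cells, gut and neurons in differing degrees. Transthyretin is a carrier of thyroid hormone and of retinol-binding protein, made by hepatocytes and also by islet cells.

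The libraries held 14883918 to 17767373 counts. Levels are given as CPM, in which counts are divided by the TMM-scaled total of their library. The targeted gene, 2610035D17Rik, had 168, 147, 137 and 125 counts in WT replicates 1 to 4 and 34, 57 and 41 in cKO replicates 1 to 3, a log2 fold change of −1.76 (SE 0.215). The groups did not overlap. Its Benjamini-Hochberg adjusted p was 0.0902 in the quasi-likelihood test of edgeR and 1.25e-09 in DESeq2. WT replicate 4 and cKO replicate 1 stood apart from the other libraries in genes of tissues next to the endocrine cells. Albumin (Alb), a liver product, reached 354 CPM in the former and 689 CPM in the latter, against 8.59 to 31.0 CPM in the other 5 libraries. Values without WT replicate 4 or cKO replicate 1 are therefore given for the results they move most.

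Sequence lies behind one limit of the measurement. Ins1 and Ins2 are close copies, with coding sequences of 327 and 333 bases in the GENCODE M21 annotation. Aligned, they were identical at 302 bases, or 92.35% of the positions without a gap, with 6 gap positions. Their longest shared run was 56 bases, from coding base 271 of Ins1 and 277 of Ins2, and it falls in the part that encodes the A chain of insulin. It is shown because a read inside it cannot be assigned to either gene by its letters.
Ins1 and Ins2, shared run: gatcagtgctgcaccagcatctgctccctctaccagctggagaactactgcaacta
Of the 303 windows of 25 bases in the Ins1 coding sequence, 65 also occurred in an Ins2 transcript, and of the 278 windows of 50 bases, 7 did. The sources used here do not give how reads matching both copies were counted, so the split between Ins1 and Ins2 is less certain than their sum. Libraries were not strand-specific. Ghrl is overlapped on the opposite strand by Gm26982, which held 37 to 57 counts per library, and by Gm44033, with at most 6. Iapp lies within the span of Slco1a5 on the opposite strand, which held at most 4 counts per library. No other hormone gene was overlapped by a gene in that annotation.

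Upstream sequence was available for 8 of the 10 genes in RefSeq's table for GRCm38.p6, and not for Ins2 or Ttr. The 250 bases before the RefSeq start are printed for 5 of them. Ins1 and Iapp are the beta cell products whose levels were compared in each library, Gcg and Sst stand for the alpha and delta cell, and Npy is the member whose level varied most. Their windows are chr19:52264047-52264296 (plus strand) for Ins1, chr6:142298175-142298424 (plus strand) for Iapp, chr2:62483654-62483903 (minus strand) for Gcg, chr16:23890845-23891094 (minus strand) for Sst and chr6:49822460-49822709 (plus strand) for Npy. Capitals mark 3 motifs searched on both strands. These are CANNTG, the E box read by basic helix-loop-helix factors such as Neurod1, TAAT (or ATTA on the other strand), the core read by many homeodomain factors such as Pdx1, and TGACGTCA, the cyclic AMP response element.
Ins1: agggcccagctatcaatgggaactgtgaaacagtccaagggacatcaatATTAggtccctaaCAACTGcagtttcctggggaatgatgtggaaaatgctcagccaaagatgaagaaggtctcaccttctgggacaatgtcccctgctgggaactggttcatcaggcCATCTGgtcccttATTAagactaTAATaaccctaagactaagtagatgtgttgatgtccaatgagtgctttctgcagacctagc
Iapp: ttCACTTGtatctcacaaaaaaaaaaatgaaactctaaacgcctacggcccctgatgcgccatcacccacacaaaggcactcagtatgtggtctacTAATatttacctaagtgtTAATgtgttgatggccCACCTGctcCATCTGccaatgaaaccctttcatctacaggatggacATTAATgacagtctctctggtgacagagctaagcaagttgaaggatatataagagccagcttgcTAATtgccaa
Gcg: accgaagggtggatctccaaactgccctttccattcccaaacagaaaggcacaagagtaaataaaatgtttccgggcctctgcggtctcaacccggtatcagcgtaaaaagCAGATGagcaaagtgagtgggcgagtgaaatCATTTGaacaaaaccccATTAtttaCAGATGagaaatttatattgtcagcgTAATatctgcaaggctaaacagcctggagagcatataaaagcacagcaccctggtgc
Sst: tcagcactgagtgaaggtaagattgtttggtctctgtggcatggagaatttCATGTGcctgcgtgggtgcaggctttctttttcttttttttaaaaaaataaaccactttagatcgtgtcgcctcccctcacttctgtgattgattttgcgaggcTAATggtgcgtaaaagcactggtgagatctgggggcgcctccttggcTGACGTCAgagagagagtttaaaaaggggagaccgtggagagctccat
Npy: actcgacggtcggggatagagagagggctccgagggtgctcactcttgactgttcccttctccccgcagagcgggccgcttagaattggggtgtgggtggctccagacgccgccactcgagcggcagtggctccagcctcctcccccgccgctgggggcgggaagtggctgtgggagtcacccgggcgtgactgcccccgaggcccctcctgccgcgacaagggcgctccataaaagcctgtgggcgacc
Ins1 held 2 CANNTG and 3 TAAT matches, and Iapp held 3 and 5, a pair of the latter overlapping. Gcg held 3 CANNTG and 2 TAAT matches. Sst held 1 of each, and a TGACGTCA match that began at −48 from the start. None of the 3 motifs was present in the Npy window, whose GC content was 69.2% against 42.8% to 47.2% in the other 4. Across all 32851 windows of the same length in the table, 66.2% held CANNTG, 54.9% held TAAT and 1.55% held TGACGTCA. A match describes the letters of the window and is not evidence that a factor binds there.

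Insulin and glucagon led the hormone genes. By mean WT level, Ins2 ranked 200th and Gcg 206th of the 16910 tested features, followed by Ttr (rank 473), Ins1 (572), Pyy (1485), Iapp (2297), Sst (5929), Npy (7177), Ghrl (11557) and Ppy (12105). The 10 genes together took 0.181%, 0.182%, 0.171% and 0.223% of all counts in WT replicates 1 to 4 and 0.239%, 0.212% and 0.197% in cKO replicates 1 to 3. In a dissected organ, fewer cells of a type and less RNA per cell cannot be told apart.

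Levels of different genes were compared per length, as CPM per kilobase of the first annotated transcript (means ± SD over 4 WT libraries). Ins2 was highest at 1115 ± 346 and Gcg next at 479 ± 60.3, and their WT ranges did not overlap. Pyy (238.5 ± 39.0), Ttr (238 ± 31.9) and Ins1 (233.9 ± 76.9) followed below Gcg, and their ranges overlapped. Iapp was lower, at 116 ± 18.02. Sst (54.4 ± 14.4) and Npy (52.4 ± 32.4) overlapped each other, as did Ghrl (13.3 ± 2.62) and Ppy (10.9 ± 2.48) at the bottom. The annotated Ins1 transcript is 1062 bases long against 478 for Ins2. Per kilobase of coding sequence Ins1 moved up to rank 3 by mean, with 760 ± 249.8 CPM against 1601 ± 496 for Ins2 and 960 ± 121 for Gcg. On that scale its WT range (600 to 1131) overlapped those of Gcg (856 to 1133) and Ttr (537 to 732).

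**Figure D1:**
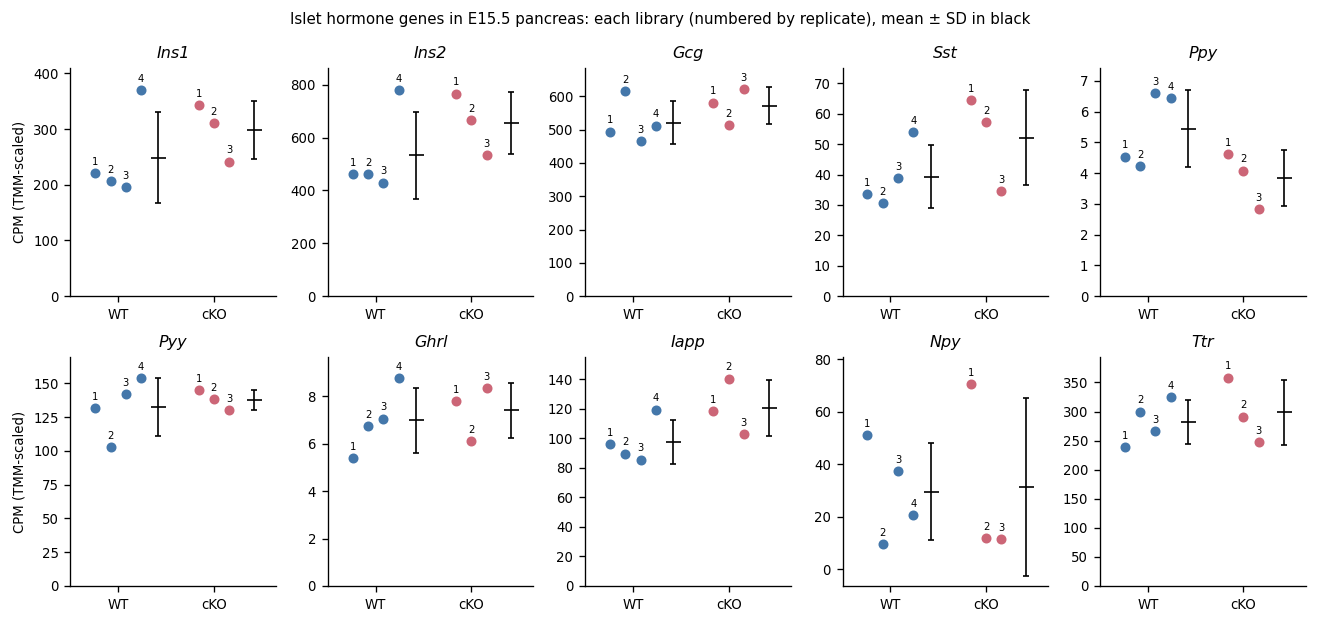
CPM of each islet hormone gene in each library (points, numbered by replicate, WT blue and cKO red) with the group mean and SD in black. WT replicate 4 sits with the cKO libraries for Ins1 and Ins2, and Npy spreads 7.45-fold over the 7 libraries while Gcg spreads 1.34-fold.

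The insulin genes were higher in the mean of cKO than of WT, but WT replicate 4 was as high as any cKO library and neither gene passed the test. Ins2 was at 461.1, 461.7, 429.8 and 779.9 CPM in WT replicates 1 to 4, and at 766.3, 664.7 and 532.6 CPM in cKO replicates 1 to 3. WT replicates 1 to 3 thus lay below every cKO library, and the groups overlapped only through WT replicate 4. WT averaged 533 ± 165 CPM (SD, n = 4) against 654.5 ± 117 CPM for cKO (SD, n = 3). On the log2 scale the fitted difference was 0.30 (SE 0.229, 95% interval −0.23 to 0.83). The edgeR adjusted p was 1.00 and the exact permutation p 0.286. Ins1 showed the same order of libraries for the most part, with 221.3, 206.1, 196.2 and 369.9 CPM in WT against 343.0, 310.2 and 241.6 CPM in cKO. Its means were 248 ± 81.7 and 298 ± 51.7 CPM, its log2 fold change 0.26 (SE 0.240, interval −0.29 to 0.82), its edgeR adjusted p 1.00 and its exact permutation p 0.314.

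Without WT replicate 4 the difference was 0.53 for Ins2 (interval 0.23 to 0.83) and 0.51 for Ins1 (0.21 to 0.81), and the edgeR adjusted p of both was 0.999. Without cKO replicate 1 it was 0.17 for Ins2 (−0.44 to 0.79) and 0.16 for Ins1 (−0.53 to 0.85), so these 2 libraries moved it in opposite directions. Ins1 was also at 0.17 without WT replicate 3 and at 0.40 without cKO replicate 3. Over all 7 libraries left out in turn, the range was 0.17 to 0.53 for Ins2 and 0.16 to 0.51 for Ins1. Without WT replicate 4 and cKO replicate 1 together, it was 0.41 for Ins2 (0.16 to 0.66) and 0.41 for Ins1 (0.14 to 0.68). With the replicate number as a block, which leaves WT replicate 4 without a partner, the values were 0.52 (0.28 to 0.76, edgeR adjusted p 0.337) and 0.51 (0.28 to 0.74, adjusted p 0.328).

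Iapp, which encodes the amyloid peptide stored with insulin, was at 95.76, 89.43, 85.41 and 119.2 CPM in WT and 118.2, 140.3 and 102.7 CPM in cKO. As for insulin, WT replicate 4 alone overlapped the cKO range. Averages were 97.5 ± 15.1 CPM for WT (SD, n = 4) against 120.4 ± 18.9 for cKO (SD, n = 3). The log2 fold change was 0.31 (SE 0.140, interval −0.01 to 0.62), with an edgeR adjusted p of 1.00 and an exact permutation p of 0.143. It was 0.41 both without WT replicate 4 (interval 0.13 to 0.69, edgeR adjusted p 0.999) and with the replicate block (0.18 to 0.64, edgeR adjusted p 0.767). The block leaves WT replicate 4 without a partner, so both fits compare the same libraries. Without cKO replicate 1 the log2 fold change was 0.32 (−0.04 to 0.69). It was 0.18 without cKO replicate 2 (−0.15 to 0.50), and leaving out 1 library at a time gave 0.18 to 0.41.

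Glucagon (Gcg), the alpha cell hormone that raises blood glucose, was the steadiest member. WT libraries held 493.5, 615.4, 464.7 and 511.6 CPM and cKO libraries 581.3, 512.6 and 621.6 CPM, so that the groups overlapped over most of their range. The log2 fold change was 0.13 (SE 0.116, interval −0.13 to 0.40), edgeR adjusted p 1.00 and exact permutation p 0.286. WT replicate 4, highest of all libraries for both insulin genes, lay within the range of the other WT libraries for Gcg. The difference ran from 0.07 without cKO replicate 3 to 0.22 without WT replicate 2.

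Somatostatin (Sst), the delta cell peptide that restrains insulin and glucagon release, was at 33.56, 30.53, 38.91 and 53.85 CPM in WT. In cKO it was at 64.43, 57.20 and 34.48 CPM, and cKO replicate 3 lay within the WT range. Means of 39.2 ± 10.4 and 52.0 ± 15.6 CPM gave a fitted log2 difference of 0.41 (SE 0.259, interval −0.19 to 1.01), edgeR adjusted p 1.00 and exact permutation p 0.229. Leaving out 1 library at a time moved it from 0.23 to 0.64, and without WT replicate 4 it was 0.59 (0.06 to 1.13, edgeR adjusted p 0.999). It was 0.23 without cKO replicate 1 (−0.46 to 0.93) and 0.42 without both of these libraries (−0.14 to 0.97).

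Ppy, which encodes pancreatic polypeptide, was the only hormone gene with a fitted value below 0. It was scarce, with 84, 71, 114 and 91 counts in WT and 78, 69 and 51 in cKO. In CPM these were 4.539, 4.233, 6.601 and 6.431 against 4.611, 4.086 and 2.818, and cKO replicate 1 lay within the WT range. Exact Poisson 95% intervals, which cover counting error only, ran from 94.0 to 137 for the 114 counts and from 38.0 to 67.1 for the 51. The log2 fold change was −0.50 (SE 0.254, interval −1.08 to 0.07), edgeR adjusted p 1.00 and exact permutation p 0.171. It ran from −0.65 without cKO replicate 1 (−1.29 to −0.01) to −0.32 without cKO replicate 3 (−0.93 to 0.28). The interval also lay below 0 without WT replicate 2 (−0.61, −1.21 to −0.01), and the edgeR adjusted p stayed at 0.972 to 1.00.

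Pyy, the peptide YY gene, was far more abundant than Ppy. It was at 131.3, 102.9, 141.8 and 153.5 CPM in WT and at 144.8, 138.1 and 130.0 CPM in cKO, a narrow set inside the WT range. The log2 fold change was 0.06 (SE 0.129, interval −0.23 to 0.35), edgeR adjusted p 1.00 and exact permutation p 0.80.

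Npy, the neuropeptide Y gene, followed single libraries and not the groups. It was high in WT replicate 1 (51.12 CPM), WT replicate 3 (37.40 CPM) and cKO replicate 1 (70.64 CPM). The other 4 libraries held less, with 9.480 CPM in WT replicate 2, 20.56 CPM in WT replicate 4, and 11.90 and 11.49 CPM in cKO replicates 2 and 3. The coefficient of variation was 61.9% in WT and 109% in cKO. Its log2 fold change of 0.08 had an interval from −2.11 to 2.26 (SE 0.885, edgeR adjusted p 1.00, exact permutation p 0.886), so a difference was not detectable against this spread.

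Ghrl, the ghrelin gene of epsilon cells, held 100, 113, 122 and 124 counts in WT and 132, 103 and 151 in cKO. In CPM the libraries were at 5.404, 6.737, 7.064 and 8.763 against 7.803, 6.099 and 8.344, and the cKO values lay inside the WT range. The log2 fold change was 0.09 (SE 0.202, interval −0.37 to 0.54), edgeR adjusted p 1.00 and exact permutation p 0.60. Reads of Gm26982, which touches Ghrl on the opposite strand, could not be told from those of Ghrl where they overlap.

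Ttr was at 238.4, 299.6, 266.3 and 324.9 CPM in WT and 358.0, 290.9 and 246.8 CPM in cKO. The highest library of each group was the one with the highest Alb, WT replicate 4 and cKO replicate 1, and the part of liver RNA in this was not tested. In the other 5 libraries Ttr stayed between 238 and 299.6 CPM while Alb was at 8.59 to 31.0 CPM. The log2 fold change was 0.08 (SE 0.146, interval −0.25 to 0.41), edgeR adjusted p 1.00 and exact permutation p 0.714, and 0.01 without both of those libraries.

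None of the 10 hormone genes passed at an adjusted p under 0.05 in edgeR, where 1 of 16910 tested features did (0.00591%), or in DESeq2, where 13 of 16865 did (0.0771%). The replicate block called 13 features (0.0769%), again with 0 hormone genes. At an unadjusted p under 0.05, edgeR also listed 0 of the 10, where 0.668% of tested features were listed as higher and 0.716% as lower. Groups overlapped for all 10 genes, and in the whole table they did not overlap for 1.3% of features on the higher side and 1.43% on the lower side. Fitted values were above 0 for 9 of 10 hormone genes, against 46% of all tested features, and the median log2 fold change was 0.11 against −0.01. The 10 genes were measured in the same 7 libraries, so they do not count as 10 separate observations.

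Single libraries decided the overlap of several groups. Sst overlapped only through cKO replicate 3 (34.48 CPM) and Ppy only through cKO replicate 1 (4.611 CPM). The share of all features separated without either of these was not counted. Ins1, Ins2 and Iapp overlapped only through WT replicate 4. Without it, all cKO libraries were above all WT libraries for Ins1, Ins2 and Iapp. That is 3 of 10, against 3.83% of tested features, and 0 of 10 were separated on the lower side, against 3.55%. For these 3 genes this restates that WT replicate 4 alone made them overlap. They are also not 3 separate observations, with Pearson r of 0.860 to 0.994 between them over the 7 libraries. Without WT replicate 4 the intervals of these 3 genes and of Sst lay above 0, where 1.55% of features were listed as higher at an unadjusted p under 0.05. The edgeR test with adjustment over the 16771 features tested without that library called 0 (0%). With 3 libraries against 3, an exact two-sided permutation test cannot give a p under 0.1. When cKO replicate 1 was left out in place of WT replicate 4, all of these intervals included 0. They were −0.53 to 0.85 for Ins1, −0.44 to 0.79 for Ins2, −0.04 to 0.69 for Iapp and −0.46 to 0.93 for Sst.

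**Figure D2:**
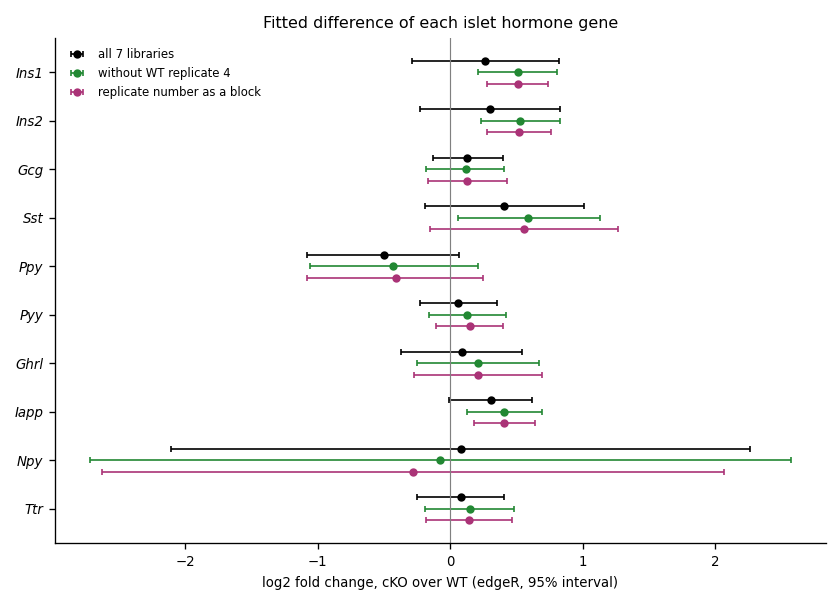
Fitted log2 fold change of each hormone gene, cKO over WT, with its 95% interval (edgeR), for all 7 libraries (black), without WT replicate 4 (green) and with the replicate number as a block (purple). All black intervals include 0, whereas those of Ins1, Ins2 and Iapp lie above 0 in both other fits. The block leaves WT replicate 4 without a partner, so both other fits compare the same libraries. Without cKO replicate 1, which is not drawn, the intervals include 0 for Ins1 (−0.53 to 0.85), Ins2 (−0.44 to 0.79) and Iapp (−0.04 to 0.69).

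Ratios of counts within a library do not depend on how totals are scaled. The steadiest was Ins1 to Ins2, at 0.480, 0.446, 0.457 and 0.474 in WT and 0.448, 0.467 and 0.454 in cKO. The copy thus gave a near constant share of the parent gene's counts in every library, while the level of Ins1 varied 1.89-fold and that of Ins2 1.82-fold. The log2 difference between groups was −0.03 (exact permutation p 0.429). Iapp relative to the insulin sum was 0.140, 0.134, 0.137 and 0.104 in WT and 0.107, 0.144 and 0.133 in cKO, lowest in WT replicate 4 and cKO replicate 1. Its difference was −0.01 on the log2 scale (exact permutation p 0.914).

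The balance of alpha and beta cell hormone differed between libraries of the same group. Gcg relative to the insulin sum was 0.723, 0.921, 0.742 and 0.445 in WT and 0.524, 0.526 and 0.803 in cKO, a log2 difference of −0.18 (exact permutation p 0.629). It was −0.39 without WT replicate 4 and with the replicate block, which leaves that library without a partner. The difference was −0.38 without cKO replicate 3 and −0.04 without WT replicate 2. The insulin genes made up 39.3%, 36.6%, 37.4% and 49.0% of the counts of the 10 genes in WT, and 45.1%, 45.6% and 40.1% in cKO. Gcg made up 21.8% to 33.7% in WT and 23.6% to 32.2% in cKO. Sst relative to the insulin sum was 0.0458 to 0.0622 in WT and 0.0446 to 0.0587 in cKO (log2 difference 0.08, exact permutation p 0.657).

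Within the peptide YY family 1 ratio separated the groups. Pyy exceeded Ppy 28.75-, 24.15-, 21.39- and 23.74-fold in WT and 31.22-, 33.56- and 45.70-fold in cKO, so that all 3 cKO libraries were above all 4 WT libraries. Geometric means were 24.4 and 36.3, a 1.49-fold or 0.58 log2 difference. The exact permutation p of 0.0286 was the smallest the design allows, and 0.286 after Benjamini-Hochberg adjustment over the 10 ratios, so the ratio did not pass. Leaving out 1 library at a time gave 0.41 to 0.68, and the limit on its precision is Ppy, with 51 to 114 counts per library.

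The other ratios overlapped between groups. Ppy to Gcg was 0.00693 to 0.0143 in WT and 0.00458 to 0.00803 in cKO (log2 difference −0.64, exact permutation p 0.171, adjusted 0.857). Pyy to Gcg differed by −0.07, Ghrl to Gcg by −0.04 and Ttr to Gcg by −0.06 on the log2 scale. Npy to Pyy ranged from 0.0924 to 0.390 in WT and from 0.0864 to 0.488 in cKO. Of the 10 ratios 0 passed, with adjusted p from 0.286 to 0.914 (exact permutation tests). With 35 divisions, at least 6 of 10 values would have to be fully separated for any to pass after adjustment, so the adjusted test could not call a single ratio.

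**Figure D3:**
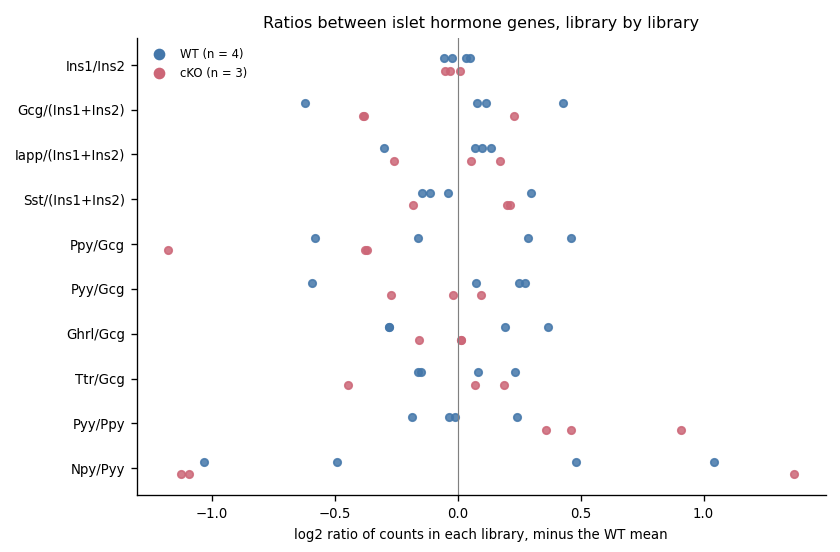
Log2 ratio of counts of the hormone genes in each library (WT blue, n = 4; cKO red, n = 3), minus the WT mean of that ratio. Points of Ins1 to Ins2 lie closest together, those of Npy to Pyy are the widest, and Pyy to Ppy is the ratio whose groups do not overlap.

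Each hormone gene was also set against the geometric mean of 18 genes listed as pan-endocrine. Among them were the granule proteins Chga and Chgb, the carboxypeptidase Cpe and the transcription factors Neurod1, Pax6 and Insm1. The most abundant was Peg3, at 1190 ± 206 CPM in WT and 1151 ± 378 CPM in cKO. The part of other cells in the counts of these 18 genes was not tested. Of these 18 genes 9 had fitted values above 0 and 9 below, 0 passed, and their median log2 fold change was −0.00171. The ratio was higher in cKO by 0.31 for Ins1, 0.33 for Ins2, 0.31 for Iapp, 0.40 for Sst and 0.15 for Gcg, and the log2 difference was −0.50 for Ppy. Adjusted p-values of the exact permutation tests were 0.629 to 0.886 and 0 of 10 passed, under the same limit as for the ratios. Leaving out 1 library at a time gave 0.19 to 0.53 for Ins1, 0.23 to 0.54 for Ins2, 0.21 to 0.43 for Iapp, 0.25 to 0.64 for Sst, 0.05 to 0.28 for Gcg and −0.62 to −0.32 for Ppy. The highest of these for Ins1, Ins2 and Iapp were without WT replicate 4, when these 3 genes and Pyy (0.17) no longer overlapped between groups. The share of all features that separate on this scale without that library was not counted. Chga was highest in the 3 libraries with the most RNA of sympathetic neuron markers, with 214, 138, 188 and 139 CPM in WT and 222, 135 and 125.5 CPM in cKO. Against 7 of these genes (Rfx6, Fev, Nkx2-2, Pax6, Neurod1, Insm1 and the crystallin gene Cryba2), chosen after this was seen, the differences were 0.33 for Ins1, 0.36 for Ins2, 0.34 for Iapp and −0.47 for Ppy.

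In 4 lists of genes that act on these hormones, 0 members passed in edgeR or DESeq2. Of 26 islet transcription factors, 8 had fitted values above 0 and 18 below, with a median of −0.06. The most abundant were Nkx6-1, needed for beta cells (−0.08), Foxa2 (0.01), Pdx1, which drives both early pancreas and insulin transcription (−0.11), and Insm1 (−0.07), all log2 fold changes. Pdx1 averaged 72.6 ± 6.98 CPM over WT (SD, n = 4) against 67.4 ± 15.99 over cKO (SD, n = 3). Of 36 tested genes of prohormone processing and granules, 21 were above 0 and 15 below (median 0.04). The 4 most abundant were Pdia6, a disulfide isomerase of the endoplasmic reticulum (0.07), and the translocon-associated proteins Ssr1 (0.02), Ssr3 (0.03) and Ssr2 (0.07).

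Receptors and binding partners of the hormones were mostly scarce. Of 22 tested, 14 had fitted values above 0 and 8 below, with a median of 0.09. The most abundant were Irs2, an adaptor of the insulin receptor (−0.11), Igf1r (−0.12), Rbp4, the retinol carrier that binds transthyretin (0.19), and the insulin receptor Insr (−0.14). Rbp4 was at 93.1 ± 11.7 CPM in WT and 106.5 ± 11.7 CPM in cKO. The ghrelin receptor Ghsr and the Y receptors Npy4r, Npy5r and Npy6r held at most 2 counts in any library and were not tested. Of 11 other peptide genes tested, 8 were above 0 and 3 below (median 0.10). Penk, the enkephalin precursor, was the most abundant, at 29.77, 25.16, 29.07 and 29.26 CPM in WT and 36.41, 31.86 and 30.83 CPM in cKO. Its groups did not overlap, as for 1.3% of all tested features on the higher side, and the difference of 0.22 had an edgeR adjusted p of 1.00. Cck (0.01), Gast (0.05) and Adm (−0.19) were at or below 6.44 CPM in every library.

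The pattern of each hormone gene over the 7 libraries was set beside that of 10309 genes with a mean of at least 10 CPM. These likenesses are descriptions over 7 libraries that share their cells and scaling. The gene nearest to both insulin genes was Cela1, an elastase of acinar cells, with Pearson r 0.995 for Ins1 and 0.998 for Ins2, beside r 0.994 between the insulin genes. Cela1 was at 763, 745, 699 and 1334 CPM in WT and 1271, 1067 and 870.5 CPM in cKO. Counts of Ins2 per count of Cela1 were 0.585 to 0.623 over all 7 libraries, a 1.07-fold range, although Ins2 itself ranged 1.82-fold. Cela1 was picked as the nearest of the 10309 genes, so a narrow ratio in the same libraries follows from that choice. Ctrb1, the most abundant acinar gene listed, followed the same order only in part, with 15790, 17910, 17610 and 35480 CPM in WT and 31560, 25530 and 16760 CPM in cKO. The summed level of 10 acinar genes was 26020 to 52930 CPM in WT and 25880 to 44220 CPM in cKO, highest in WT replicate 4 and cKO replicate 1. The part of acinar content in the insulin values was not tested.

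Npy lay nearest to Apbb1 (r 0.998), the neurotrophic factor co-receptor Gfra3 (r 0.996) and the synaptotagmin Syt11 (r 0.996). Among 11 markers of sympathetic neurons, which use neuropeptide Y as a co-transmitter, Stmn2 was the most abundant, at 174, 34.4, 160.0 and 96.7 CPM in WT and 258, 50.5 and 57.3 CPM in cKO. Counts of Npy per count of Stmn2 were 0.201 to 0.294 over all libraries, a 1.47-fold range, although Npy itself ranged 7.45-fold. Per count of Gfra3 they were 0.697 to 1.70, a 2.43-fold range. Th, the first enzyme of noradrenaline synthesis, was at 97.5, 3.10, 67.2 and 25.3 CPM in WT and 109, 4.80 and 6.96 CPM in cKO. Counts of Npy per count of Th were 0.524 to 3.06, a 5.83-fold range, so Npy did not keep a constant proportion to it. The summed level of the 11 markers was 176 to 1133 CPM in WT and 194.5 to 1514 CPM in cKO. The libraries with high Npy were the 3 in which these markers were highest, and the part of neurons in the Npy level was not tested.

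**Figure D4:**
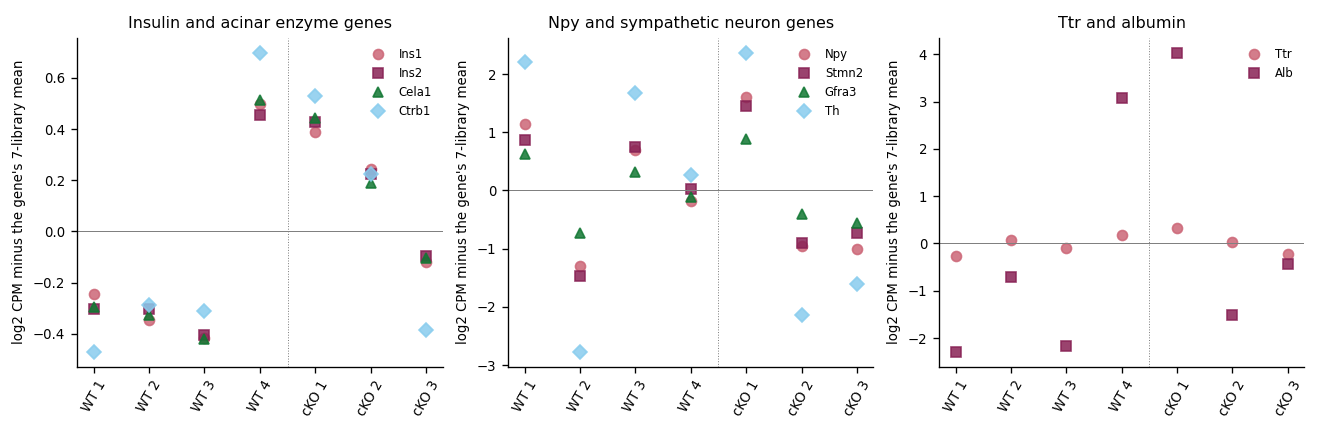
Log2 CPM of hormone genes and of genes of neighbouring cell types in each library, minus the mean of that gene over 7 libraries. Ins1, Ins2 and Cela1, which was picked for its likeness to them, overlie each other in every library. Npy and Stmn2 nearly do so, while Gfra3 moves less and Th more. Ttr moves little where Alb moves by several log2 units.

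The remaining members had their nearest genes elsewhere. Gcg lay nearest to H2afz (r 0.986) and H2afx (r 0.962), 2 histone variant genes, and Ttr to Adrm1 (r 0.985). Iapp was nearest to Tmbim1 (r 0.954), Sst to Ciao2b (r 0.990), Ppy to Noct (r 0.945), Pyy to Retreg2 (r 0.977) and Ghrl to Gucd1 (r 0.956).

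Other tissues that make these peptides were checked by their markers. All 12 liver genes had fitted values above 0, against 46% of all tested features, with a median of 0.94 and 0 passing. Their sum was 129, 208, 140 and 1046 CPM in WT replicates 1 to 4 and 1696, 184 and 207 CPM in cKO replicates 1 to 3. The sums of cKO replicates 2 and 3 thus lay within the WT range. Ttr per Alb ran from 0.520 in cKO replicate 1 to 28.7 in WT replicate 3. Stomach and gut epithelium can supply Ghrl and Pyy. The stomach markers Gkn1 and Muc5ac held 3 and 2 counts in all 7 libraries together, and the intestinal markers Cdx2, Cdx1 and Fabp2 held 35, 28 and 8. Other genes of these lists were present. The stomach gene Tff2 was at 4.20 to 11.7 CPM and Atp4a at 2.00 to 6.50 CPM, near the level of Ghrl (5.40 to 8.76 CPM). Vil1, an intestinal gene, was at 16.1 to 31.1 CPM. Fabp1 held 58 counts in all, 32 of them in cKO replicate 1, the library with the highest Alb. The part of liver RNA in Fabp1 was not tested. Summed stomach markers were at 7.96 to 19.7 CPM and intestinal markers at 24.04 to 38.6 CPM per library, and their part in Ghrl and Pyy was not tested.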

How the data were processed

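The authors deposited raw counts, whole numbers of reads for each feature, in 7 libraries (4 WT, 3 cKO) that the labels call biological replicates. Per the submitters' processing notes, HISAT2, StringTie, featureCounts and mm39 were used, in roles that are not stated. How reads matching several genes were treated is therefore unknown here. Features with only a running number held 0.206% of the counts and stayed in the fit. From the counts, edgeR 4.0.16 in R 4.3.3 (filterByExpr, TMM, robust quasi-likelihood test, Benjamini-Hochberg over 16910 features, threshold 0.05) gave fold changes, with the group as the only term. The common biological coefficient of variation was 0.218. For single values, the 35 divisions of the libraries gave an exact permutation test (two-sided), which gives no p under 0.0286. Ratios used counts plus 0.5, and log2 CPM a prior count of 2. DESeq2 1.42.0, other scalings and filters, left-out libraries and a replicate block were alternatives.

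Replicate numbers were treated as pairing the samples only in the replicate block, an alternative to the main fit. This rested on a hint from the data alone, since no label states a shared litter or day. Deviations from group means correlated by 0.397, 0.531 and 0.178 between same-numbered libraries. Other pairs ran from −0.625 to 0.376 (WT replicate 2 with cKO replicate 3), and WT replicate 4 with cKO replicate 1 gave 0.358. In the column headers of 6 libraries the group name is followed by a 6, and in that of WT replicate 4 by a 7, whose meaning is not given.

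The members and gene lists were chosen with earlier results of these data known. Text names all members, the targeted gene, the 4 most abundant genes of each pathway list, Alb and leading genes of lists of other cell types, and up to 3 genes with the highest Pearson r to each member. Chga, Chgb, Cpe and other list members, Th, and markers with few counts were named after their values were seen. GENCODE M21 and RefSeq on GRCm38 gave names, lengths and sequences only.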

Additional observations from a re-analysis of the deposited data

Results flagged for a closer look

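Each group of 4 WT values of the 10 genes, the 10 ratios and the 10 levels relative to pan-endocrine genes was examined for a single library far from the rest, 30 groups in all, and chance picks out about 5% of such groups. Both values found were of WT replicate 4. Ins2 log2 CPM was highest there, with a gap to the next library of 0.88 of the whole WT range against a critical value of 0.829. The Iapp to insulin ratio (log2) was lowest there, with a gap of 0.846 of the range.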

How the results depend on the processing

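In each alternative edgeR or DESeq2 fit, 0 hormone genes passed. For ratios and levels relative to pan-endocrine genes the alternatives say nothing on calls, since 3 libraries against 3 give no exact two-sided permutation p under 0.1 and 4 against 2 none under 0.0667, and the replicate block gave values with no p. The number of features past the edgeR threshold was 1, and it was 0 with DESeq2 size factors, library totals, a filter at 1 CPM or estimation that is not robust, 4 with no filter, 13 with the DESeq2 test and 13 with the replicate block. Leaving out 1 library at a time gave 0 to 3 such features: 3 without WT replicate 1 or without WT replicate 3, and 0 without either of WT replicates 2 and 4 or either of cKO replicates 2 and 3. Among values with no call, the replicate block turned Npy to −0.28 and the log2 ratio differences of Pyy/Gcg to 0.02, Ghrl/Gcg to 0.08 and Ttr/Gcg to 0.01, and it changed no hormone gene's call. Without WT replicate 4 and cKO replicate 1, Npy was −1.48, Iapp/(Ins1+Ins2) 0.01, Sst/(Ins1+Ins2) −0.02 and Ghrl/Gcg 0.05, with Npy/Pyy at −1.28 and Npy relative to pan-endocrine genes at −1.12. Leaving out 1 library at a time gave log2 fold changes of −0.05 to 0.13 for Pyy, −0.02 to 0.21 for Ghrl, −1.34 to 0.48 for Npy and −0.06 to 0.20 for Ttr. Ratio differences ran from −0.11 to 0.11 for Iapp/(Ins1+Ins2), −0.26 to 0.04 for Pyy/Gcg, −0.14 to 0.08 for Ghrl/Gcg, −0.19 to 0.13 for Ttr/Gcg and −1.11 to 0.14 for Npy/Pyy, and levels relative to pan-endocrine genes from −0.06 to 0.24 for Ghrl, −1.05 to 0.22 for Npy and −0.04 to 0.18 for Ttr. The cause of these changes was not tested. Depth limits Ppy and Ghrl most.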

Other observations

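Some lower-ranked genes of the pathway lists, named here after their values were seen, bear on insulin production. They do not stand for their lists. Fitted values were above 0 for 8 of 26 islet transcription factors and for 21 of 36 genes of prohormone processing and granules. Chgb (−0.28), Mlxipl (−0.13) and Pax4 (−0.07) of these lists had log2 fold changes below 0. Ero1lb, an oxidase that supports disulfide formation in proinsulin, was at 126, 74.7, 70.6 and 113 CPM in WT replicates 1 to 4 and 160, 151 and 117 CPM in cKO replicates 1 to 3, a log2 fold change of 0.57 (SE 0.226) with an edgeR adjusted p of 1.00. Slc30a8, the zinc transporter of insulin granules, was at 7.13, 8.82, 10.4 and 13.6 CPM in WT and 10.1, 13.7 and 13.4 CPM in cKO (0.31, SE 0.224). Mafa, a beta cell factor that binds the insulin promoter, averaged 23.3 ± 3.90 CPM over WT (SD, n = 4) against 28.4 ± 6.69 over cKO (SD, n = 3), with a fitted log2 difference of 0.28 (SE 0.178). Neurog3, which starts endocrine differentiation, was at 63.1 ± 4.44 and 58.2 ± 8.99 CPM (−0.12, SE 0.114). Urocortin 3 (Ucn3), known from mature beta cells, held 41 counts in all 7 libraries together and was not tested.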
